A study of Mus musculus with 4 samples.

Results

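The genes described here encode the T cell antigen receptor, the CD3 chains that signal for it, its coreceptors and 2 of the molecules that act beside it. They are Trac and Trbc2 (constant regions of the receptor α and β chains), Cd3d, Cd3e and Cd3g (the CD3δ, CD3ε and CD3γ chains), Cd4, Cd8a and Cd8b1 (the coreceptors), Cd2 (an adhesion and costimulatory receptor) and Lat (the membrane adaptor that links receptor triggering to downstream signalling). These 10 genes, of 54532 listed, were chosen by their counts in the same 4 libraries, because T cell genes had been noted as higher in both Zbp1-KO libraries than in WT. Their difference between genotypes is therefore given as a description and was not tested. The 4 libraries were whole-kidney RNA-seq from pristane-treated female mice of the C57BL/6J background, 2 from WT animals and 2 from Zbp1-KO animals, in which CRISPR-Cas9 had removed several exons of Zbp1, a sensor of left-handed nucleic acids. All animals received 500 µL of pristane intraperitoneally at 8 weeks of age, and the kidneys were taken 8 months later. Pristane is a hydrocarbon oil that provokes a lupus-like disease. No kidney without pristane was analysed here, so a level cannot be read as a response to the oil. The sources do not say whether the libraries of a genotype came from separate mice, so the spread between them may be technical in part.

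A T cell recognises peptide on an MHC molecule through the variable α and β chains of its receptor, which have almost no cytoplasmic part. The CD3 chains and the ζ chain, encoded by Cd247, carry the activation motifs, which the kinase Lck phosphorylates. CD4 binds MHC class II and CD8 binds MHC class I, and both bring Lck to the receptor. Zap70 then phosphorylates LAT, on which phospholipase Cγ and adaptor proteins assemble. In lupus nephritis, T cells lie in the interstitium and around glomeruli, so that in whole kidney these transcripts come from a small minority of cells. In bulk RNA, a change in the number of T cells and a change in RNA per cell cannot be told apart.

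Each library held between 9878776 and 12921925 counts, of which 4003417 to 5782924 were not mitochondrially encoded. Levels are CPM (counts scaled to library size) with TMM scaling, and 1 CPM was 9.28 to 13.6 counts. Intervals and detection floors below cover counting error only. Zbp1 itself gave 94 and 125 WT counts, against 18 and 0 counts in Zbp1-KO replicates 1 and 2, so the libraries followed their labels, although Zbp1-KO replicate 1 kept counts on the gene. The 10 genes were near the limit of detection: 4 of them had fewer than 10 counts in WT replicate 1, 5 in WT replicate 2, 0 in Zbp1-KO replicate 1 and 2 in Zbp1-KO replicate 2. A total of 9 passed the filter on low counts and entered the fit, and Cd3e did not. A gene high in only one genotype could pass through that genotype alone.

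Cd3g, Cd3d and Cd3e lie side by side on chromosome 9 within 40056 bases. Cd3g and Cd3d are transcribed away from each other, with 1355 bases between their annotated starts. Their upstream sequences are shown because all 3 CD3 genes had their lowest level in the same library, WT replicate 2. For Cd3e this rests on 3 counts, the same as in Zbp1-KO replicate 2. The Lat sequence is shown because Lat was among the genes that differed most between genotypes. The sequences are the 250 bases before the transcription start in RefSeq (GRCm38.p6), 5′ to 3′ on the strand of the gene. Capitals mark the ETS core AGGAAG, or its reverse complement CTTCCT, and the E-box CACCTG, or CAGGTG.
Cd3g, chr9:44980432-44980681 (- strand): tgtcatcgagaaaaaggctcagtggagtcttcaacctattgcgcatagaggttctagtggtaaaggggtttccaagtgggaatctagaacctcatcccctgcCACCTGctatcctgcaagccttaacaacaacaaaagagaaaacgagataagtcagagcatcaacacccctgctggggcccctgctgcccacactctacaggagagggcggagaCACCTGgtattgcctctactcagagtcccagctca
Cd3d, chr9:44981536-44981785 (+ strand): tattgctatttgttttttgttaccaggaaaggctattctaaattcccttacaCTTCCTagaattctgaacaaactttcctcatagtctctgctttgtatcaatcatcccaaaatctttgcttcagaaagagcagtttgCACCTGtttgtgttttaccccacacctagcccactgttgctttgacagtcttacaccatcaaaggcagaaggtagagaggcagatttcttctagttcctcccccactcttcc
Cd3e, chr9:45009612-45009861 (- strand): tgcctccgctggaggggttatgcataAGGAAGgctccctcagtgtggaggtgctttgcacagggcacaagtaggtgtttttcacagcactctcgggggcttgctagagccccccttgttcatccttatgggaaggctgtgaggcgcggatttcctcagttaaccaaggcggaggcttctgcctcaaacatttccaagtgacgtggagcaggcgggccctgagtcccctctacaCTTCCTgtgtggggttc
Lat, chr7:126369569-126369818 (- strand): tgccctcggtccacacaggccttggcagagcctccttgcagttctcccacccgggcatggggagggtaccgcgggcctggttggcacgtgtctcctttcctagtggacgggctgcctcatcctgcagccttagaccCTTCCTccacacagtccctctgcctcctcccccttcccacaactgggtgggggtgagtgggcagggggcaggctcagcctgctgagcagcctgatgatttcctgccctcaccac
The ETS core was in the windows of Lat, Cd3d and Cd3e, 3 of the 5 genes for which a window was at hand (those above and Cd8a), against 29.5% of 32851 promoter windows of the same length. The E-box CACCTG was in those of Cd3g and Cd3d, against 17.2% of windows. The TCF/LEF letters TCAAAG, or CTTTGA, were in the Cd3d window alone, against 13.8%. The RUNX letters TGTGGT, or ACCACA, the E-box CAGCTG and the TATA box TATAAA, or TTTATA, were in none of the 5 windows and in 14.0%, 13.0% and 12.4% of all windows. These matches describe letters in a window, and no binding was measured.

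Summed over the 10 genes, the level was 12.4 CPM in WT replicate 1 and 11.2 CPM in WT replicate 2, against 29.6 CPM in Zbp1-KO replicate 1 and 23.2 CPM in Zbp1-KO replicate 2. The exact Poisson 95% intervals of these sums, which cover counting error and not the spread between libraries, were 10.5 to 14.5, 9.37 to 13.3, 26.8 to 32.7 and 20.2 to 26.5 CPM. The means differed 2.24-fold, on the values by which the genes were chosen. Without Lat the ratio was 2.07, and without Lat and Cd8a it was 2.02. The leading gene varied between libraries. Cd3g gave 33.1% of it in WT replicate 1, Cd8a 25.2% in WT replicate 2, Lat 15.9% in Zbp1-KO replicate 1 and Cd3g 20.5% in Zbp1-KO replicate 2.

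**Figure D1:**
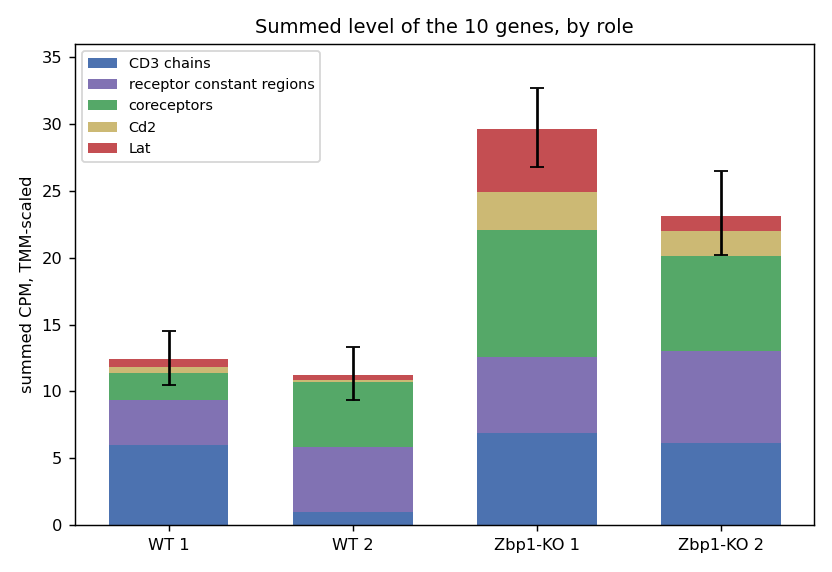
Stacked bars give the summed CPM of the 10 genes in each library, divided into CD3 chains, receptor constant regions, coreceptors, Cd2 and Lat, and the black bars are exact Poisson 95% intervals of the whole sum. Both Zbp1-KO sums (29.6 and 23.2) lie above both WT sums (12.4 and 11.2), and the CD3 share is thin in WT replicate 2.

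The gene-by-gene values were less even than the sum. Only Cd4, Cd8a, Cd2 and Lat, 4 of the 10, were higher in both Zbp1-KO libraries than in both WT libraries, where 16.0% of the 14908 tested genes were so ordered. The other 6 overlapped between genotypes, so the description by which the genes were chosen did not hold for them one by one. The fitted log2 fold change of Zbp1-KO over WT was above 0 for all 10, with a median of 1.17, and over the 9 genes in the fit the median was 1.20, against -0.01 for all tested genes. These medians come from the values by which the genes were chosen, so the contrast with all genes is no test. Cd2 and Lat, with fewer than 10 counts in both WT libraries, entered the fit through the Zbp1-KO libraries alone. In Zbp1-KO replicate 1, 8 genes lay above both WT libraries, in Zbp1-KO replicate 2 6 did, and 8 were higher in replicate 1 than in replicate 2. With the other Zbp1-KO library left out, 34.9% and 34.3% of all tested genes lay above both WT libraries in replicates 1 and 2. Across all genes, edgeR's quasi-likelihood test called 2 at an adjusted p under 0.05, which is 0.0134%. These, Cfd and Lars2, are named for that call alone.

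**Figure D2:**
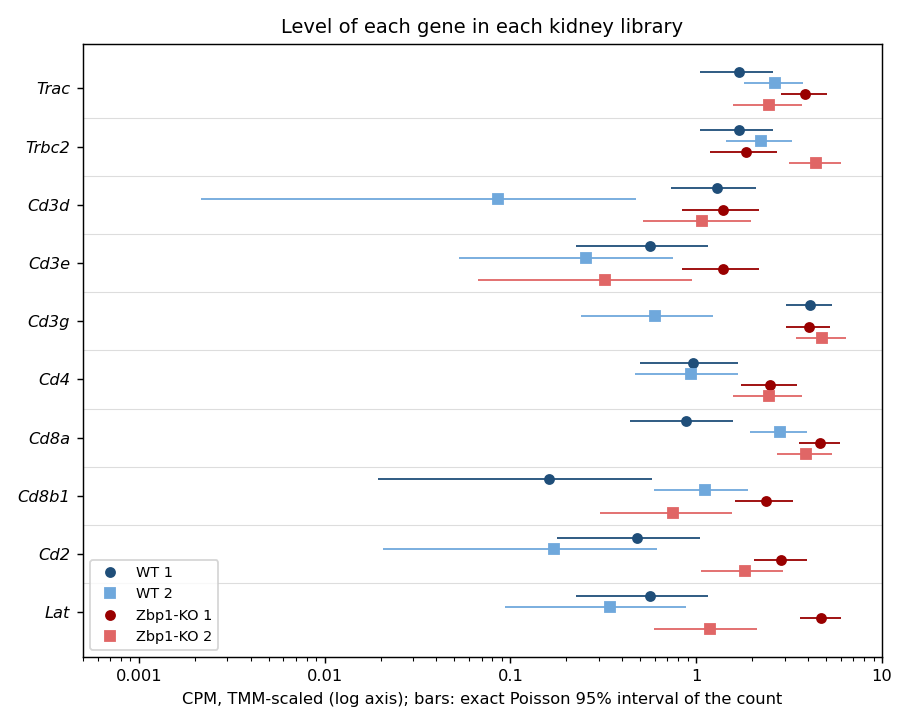
Points give the CPM of each gene in each library on a log axis, with exact Poisson 95% intervals of the count as lines. Both red symbols lie to the right of both blue symbols for Cd4, Cd8a, Cd2 and Lat, and WT replicate 2 is far to the left for Cd3d and Cd3g.

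Per length of exon, the receptor constant regions were the most abundant of the 10. The mean RPKM over the 4 libraries was 3.68 for Trbc2 and 2.85 for Trac, then 1.03 for Cd3g, 0.841 for Cd8a, 0.770 for Cd2, 0.739 for Cd8b1, 0.615 for Lat, 0.530 for Cd3d, 0.427 for Cd4 and 0.156 for Cd3e. The ranges of neighbours in this order overlapped except between Trac, whose lowest library had 1.81 RPKM, and Cd3g, whose highest had 1.45 RPKM. In WT alone, Trbc2 had 2.83 ± 0.546 RPKM (SD, n = 2), Trac 2.32 ± 0.728, Cd3g 0.719 ± 0.758, Cd2 0.188 ± 0.127 and Cd3e 0.100 ± 0.0531. Trac (chromosome 14, 54220521 to 54224206, plus strand) and Trbc2 (chromosome 6, 41546730 to 41548352, plus strand) are annotated as constant-region gene segments.

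The receptor constant regions differed least between genotypes. Trac had 21 and 31 WT counts against 52 and 23 in Zbp1-KO replicates 1 and 2, or 1.69, 2.65, 3.83 and 2.48 CPM. Zbp1-KO replicate 2 lay below WT replicate 2, and the fold change on the log2 scale was 0.54. Trbc2 had 21, 26, 25 and 41 counts in the same order, or 1.69, 2.22, 1.84 and 4.42 CPM. Here Zbp1-KO replicate 2 was the high library and replicate 1 lay inside the WT values, and the log2 fold change was 0.67. The 2 constant regions, although parts of the same receptor, were thus highest in different Zbp1-KO libraries.

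Cd3g and Cd3d, but not Cd3e, separated WT replicate 2 from the other 3 libraries. Cd3g (chromosome 9, 44969572 to 44980431, minus strand) had 51 counts in WT replicate 1, 7 in WT replicate 2, and 55 and 44 in the Zbp1-KO libraries, or 4.10, 0.599, 4.06 and 4.74 CPM. Cd3d (chromosome 9, 44981786 to 44987339, plus strand) followed the same pattern with 16, 1, 19 and 10 counts. For both genes WT replicate 1 was as high as a Zbp1-KO library. Cd3e (chromosome 9, 44998740 to 45009627, minus strand) had 7, 3, 19 and 3 counts, so that Zbp1-KO replicate 1 alone was high. It shares 135 exonic bases with Gm48719 on the opposite strand, and reads there cannot be assigned with certainty because the strand setting of the counting is not given in the sources used here. Summed, the CD3 chains had 5.95 and 0.941 CPM in the WT pair against 6.86 and 6.14 CPM in the knockout pair. The log2 fold changes of Cd3d, Cd3e and Cd3g were 0.84, 1.15 and 0.89, and that of Cd3d turned to -0.06 without WT replicate 2. Cd247, which encodes the ζ chain, showed no such drop, with 22 and 16 WT counts against 20 and 25 Zbp1-KO counts.

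Of the coreceptors, Cd4 and Cd8a were higher in both Zbp1-KO libraries. Cd4 (chromosome 6, 124864692 to 124888221, minus strand) had 12 and 11 WT counts against 34 and 23 Zbp1-KO counts, or 0.965, 0.941, 2.51 and 2.48 CPM. The 2 libraries of each genotype were closely matched, at 0.953 ± 0.0172 CPM for WT (SD, n = 2) against 2.49 ± 0.0208 CPM for Zbp1-KO (SD, n = 2), which is closer than counting error alone gives at these counts. Its log2 fold change was 1.38, between 1.35 and 1.39 with any library left out. In kidney, macrophages and dendritic cells can also carry CD4, so Cd4 is not a T cell transcript alone.

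Cd8a (chromosome 6, 71373427 to 71379173, plus strand) encodes the CD8α chain. Its counts were 11 and 33 in WT and 63 and 36 in Zbp1-KO, or 0.885, 2.82, 4.65 and 3.88 CPM. The WT libraries differed from each other more than WT replicate 2 did from Zbp1-KO replicate 2, and the groups, 1.85 ± 1.37 and 4.26 ± 0.543 CPM, did not overlap, with a log2 fold change of 1.20. Cd8b1 (chromosome 6, 71322788 to 71337494, plus strand), whose product pairs with CD8α on most cytotoxic T cells, lies 35933 bases upstream of Cd8a. It had 2 and 13 WT counts against 32 and 7 Zbp1-KO counts. Zbp1-KO replicate 2 lay below WT replicate 2, so the groups overlapped, and the log2 fold change was 1.30. Cd8b1 made up 15.4% and 28.3% of the Cd8b1 plus Cd8a counts of the WT libraries, against 33.7% and 16.3% for Zbp1-KO.

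The balance of the coreceptors overlapped between genotypes. Cd4 made up 52.2% of the Cd4 plus Cd8a counts in WT replicate 1 (Wilson 95% interval 33.0 to 70.8), 25.0% in WT replicate 2 (14.6 to 39.4), 35.1% in Zbp1-KO replicate 1 (26.3 to 45.0) and 39.0% in Zbp1-KO replicate 2 (27.6 to 51.7). Both Zbp1-KO values lay between the WT values. The mean was 38.6% in WT and 37.0% in Zbp1-KO, a difference of -1.57 percentage points that leaving out 1 library moved between -15.2 and 12.0. With 2 libraries per genotype no exact permutation test can reach 0.05, so none was run.

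**Figure D3:**
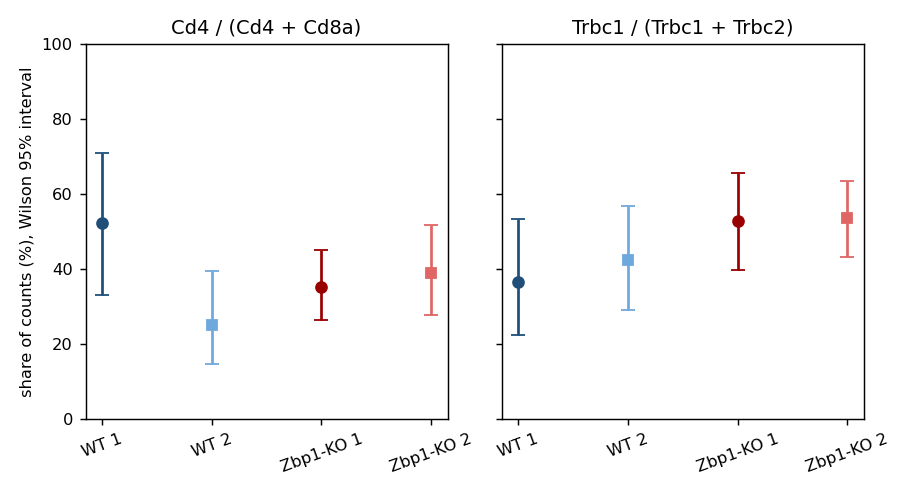
Points give the share of counts in each library with Wilson 95% intervals, Cd4 among Cd4 plus Cd8a on the left and Trbc1 among Trbc1 plus Trbc2 on the right. On the left both Zbp1-KO shares (35.1% and 39.0%) lie between the WT shares (52.2% and 25.0%), and on the right they (52.8% and 53.4%) lie above them (36.4% and 42.2%) with overlapping intervals.

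Cd2 and Lat differed most between genotypes. Cd2 (chromosome 3, 101275899 to 101287939, minus strand), an adhesion receptor, had 6 and 2 WT counts against 39 and 17 Zbp1-KO counts, or 0.483, 0.171, 2.88 and 1.83 CPM. Both Zbp1-KO libraries were above both WT libraries, and the means of 0.327 ± 0.220 and 2.35 ± 0.739 CPM differed 7.20-fold (log2 fold change 2.81). Lat (chromosome 7, 126363824 to 126369570, minus strand) had 7 and 4 WT counts against 64 and 11 Zbp1-KO counts, or 0.563, 0.342, 4.72 and 1.18 CPM. Here Zbp1-KO replicate 1 decided the size: the means of 0.453 ± 0.156 and 2.95 ± 2.50 CPM differed 6.52-fold, and the log2 fold change of 2.69 fell to 1.36 without that library. Lat shares 75 exonic bases with the microRNA gene Mir7058 on the same strand.

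**Figure D4:**
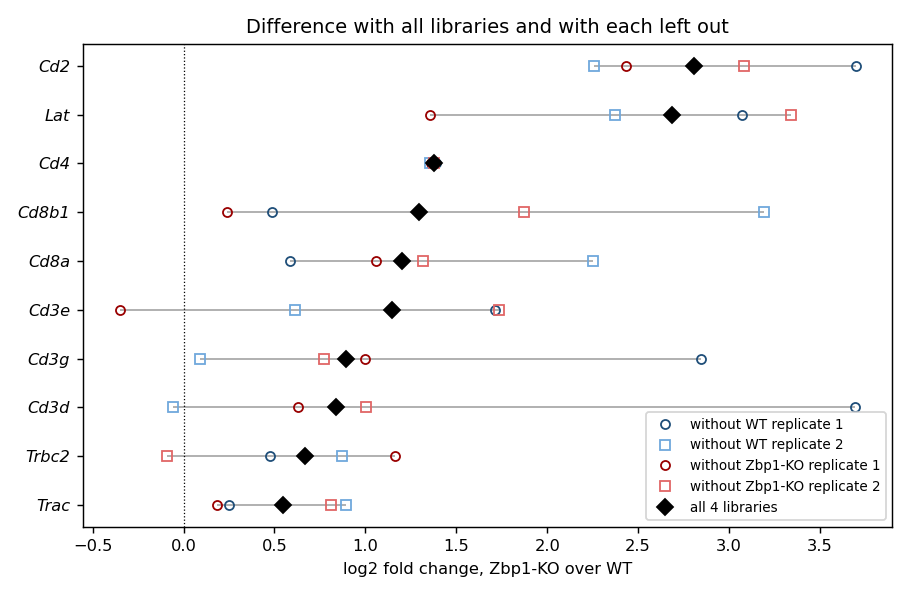
Diamonds give the fitted log2 fold change of Zbp1-KO over WT with all 4 libraries, and open symbols the same value with 1 library left out, joined by a grey line. Cd4 barely moves (1.35 to 1.39), Cd2 stays between 2.26 and 3.70, and Cd3d, Cd3e and Trbc2 cross 0.

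Leaving out a library therefore acted unevenly. Cd3d ranged from -0.06 to 3.69, Cd3g from 0.09 to 2.85, Cd8b1 from 0.24 to 3.19 and Cd8a from 0.59 to 2.25 on the log2 scale. Without Zbp1-KO replicate 1, Cd3e was at -0.35, and without Zbp1-KO replicate 2, Trbc2 was at -0.09. The count of genes with every Zbp1-KO library above every WT library rose to between 6 and 8 when a library was left out, where the share of all tested genes so ordered was also higher, at 28.7% to 34.9%.

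The receptor loci were also read as a whole from the annotation. Of the 8 genes annotated as T cell receptor constant regions, 7 had counts. Together they had 76 and 88 WT counts against 133 and 198 Zbp1-KO counts, or 6.11, 7.53, 9.81 and 21.3 CPM. This sum is not separate from the chosen genes, because Trac and Trbc2 gave 42, 57, 77 and 64 of these counts. Zbp1-KO replicate 2, not replicate 1, was the highest library. Of 144 variable segments, 4 had any count, and these summed to 3, 0, 0 and 7 counts, with 0 counts allowing up to 0.257 CPM in WT replicate 2 and 0.221 CPM in Zbp1-KO replicate 1. The variable segments held too few counts to compare genotypes, and why they held so few next to the constant regions was not tested.

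Among the other receptor chains, 3 of 8 genes were tested and none was called. Tcrg-C2, a constant region of the γ chain of γδ T cells, had 8 and 4 WT counts against 26 and 65 Zbp1-KO counts, with a log2 fold change of 3.14 (SE 0.98, edgeR adjusted p = 0.999). The γ constant regions together had 16 and 10 WT counts against 28 and 87 Zbp1-KO counts, but the segments were split. Tcrg-C1 had 8 and 3 WT counts and 0 in both Zbp1-KO libraries. Tcrg-C4 had 0 and 3 WT counts against 2 and 22, so that it was high in Zbp1-KO replicate 2 alone. Trdc, the constant region of the δ chain, had 6 and 2 WT counts but 0 in both Zbp1-KO libraries. The γ constant segments resemble each other to an extent not measured here, so counts among them are uncertain. Trbc1, the other β constant region, had 12, 19, 28 and 47 counts with a log2 fold change of 1.45 (edgeR adjusted p = 0.999), and it also closely resembles Trbc2. Its share of the Trbc1 plus Trbc2 counts was 36.4% and 42.2% in WT and 52.8% and 53.4% in Zbp1-KO.

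Genes that signal downstream of the receptor were listed apart from the 10. Of 38 listed, 27 were tested, 18 were higher and 9 lower in Zbp1-KO, and edgeR called 0, with 4 at an unadjusted p under 0.05, all higher. Over all 14908 tested genes, 7366 were higher and 7542 lower, and 284 (1.91%) were higher and 294 (1.97%) lower at that p. The exact test and DESeq2 also called 0. Their median log2 fold change was 0.25. The 4 most abundant were Plcg1 (0.25), Csk (0.16), Nfatc3 (0.17) and Ptpn6, which encodes the phosphatase SHP-1 of all leukocytes (0.81, SE 0.24, edgeR adjusted p = 0.999). Ptpn6 had 217 and 182 WT counts against 411 and 255 Zbp1-KO counts. Plcg1, Csk and Nfatc3 are expressed well beyond T cells. Genes of narrower expression, named here after their values were seen, were split. Themis, a T cell signalling protein, had 0 counts in both WT libraries and 25 and 7 in Zbp1-KO, and Zap70 had 2, 3, 8 and 15. Lck had 60 and 22 WT counts against 83 and 33 Zbp1-KO counts, and Trat1, a receptor-associated adaptor, had 2 and 7 in WT and 0 in both Zbp1-KO libraries.

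Genes that mark T cell subsets and states were also mixed. Of 46 listed, 24 were tested, 18 higher and 6 lower in Zbp1-KO, with 0 called by edgeR, its exact test or DESeq2, 1 at an unadjusted p under 0.05 (higher) and a median log2 fold change of 0.45. That count of 1 is near the share over all genes, 1.91% higher and 1.97% lower, and nothing is read from it. Among the most abundant, Gata3 (-0.07), Zbtb7b (0.14) and S1pr1 (0.17) are also made by kidney epithelium or endothelium. Chosen after their values were seen, Cxcr6, a chemokine receptor of tissue-resident T cells, had 0 and 4 WT counts against 49 and 21 Zbp1-KO counts. Ctla4, an inhibitory receptor, had 0 counts in both WT libraries and 8 and 21 in Zbp1-KO, and Ccl5, a chemokine of effector T cells, had 11, 79, 154 and 89. Other subset genes, chosen in the same way, went the opposite way. Il7r, part of the IL-7 receptor of naive and memory T cells, had 31 and 27 WT counts against 4 and 14 Zbp1-KO counts, Cd69 had 15, 5, 2 and 0, and Foxp3, the factor of regulatory T cells, had counts in WT replicate 1 alone, 12.

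Lists of other cell types gave values beside these. NK cell genes were nearly undetected, with counts for 3 of 8, 1 tested and Ncr1, Klrb1c and Klre1 at 0 in all 4 libraries. B cell genes had a median log2 fold change of -0.29 over 5 tested of 10, and their summed level was 9.65 and 9.24 CPM in the WT pair against 4.13 and 9.80 CPM in the knockout pair. Ms4a1 had 7 counts in WT replicate 1 and 0 elsewhere, and Cd79a was at 0 in both Zbp1-KO libraries. The median log2 fold changes of macrophage genes (0.16, 12 tested), general leukocyte genes (0.20, 10 tested), lymph node stroma genes (-0.19, 5 tested) and kidney epithelial genes (0.14, 10 tested) stood beside -0.01 for all tested genes, and edgeR called none of these genes. They cannot be ranked against the 10 genes, whose median was raised by the way they were chosen. The summed leukocyte level was 147 and 130 CPM in the WT pair against 168 and 148 CPM in the knockout pair.

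Fat and immediate-early genes were scored in the same libraries. Both lists were chosen with earlier results of these data known, so their counts beside all genes are a description only. The fat genes had a median log2 fold change of 1.36 over 10 tested, with 9 higher. Of these, 6 were at an unadjusted p under 0.05 (1.91% of all genes were so) and 1 was called by edgeR, Cfd, which encodes adipsin. Their summed level was 716 and 684 CPM in the WT pair against 1102 and 783 CPM in the knockout pair, and the list score, the mean centred log2 CPM of the tested genes, was -0.83 and -0.56 in WT against 0.69 and 0.70 in Zbp1-KO. The immediate-early genes had a median of -1.15, with 13 of 14 lower, 11 of them at an unadjusted p under 0.05 (1.97% of all genes were so) and 0 called by edgeR, and scores of 1.28, 0.09, -0.62 and -0.75. The score of the T cell receptor genes, over the 9 tested, was -0.54 and -0.77 in WT and 0.86 and 0.45 in Zbp1-KO. The part of fat or immediate-early transcripts in the T cell receptor values was not tested.

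**Figure D5:**
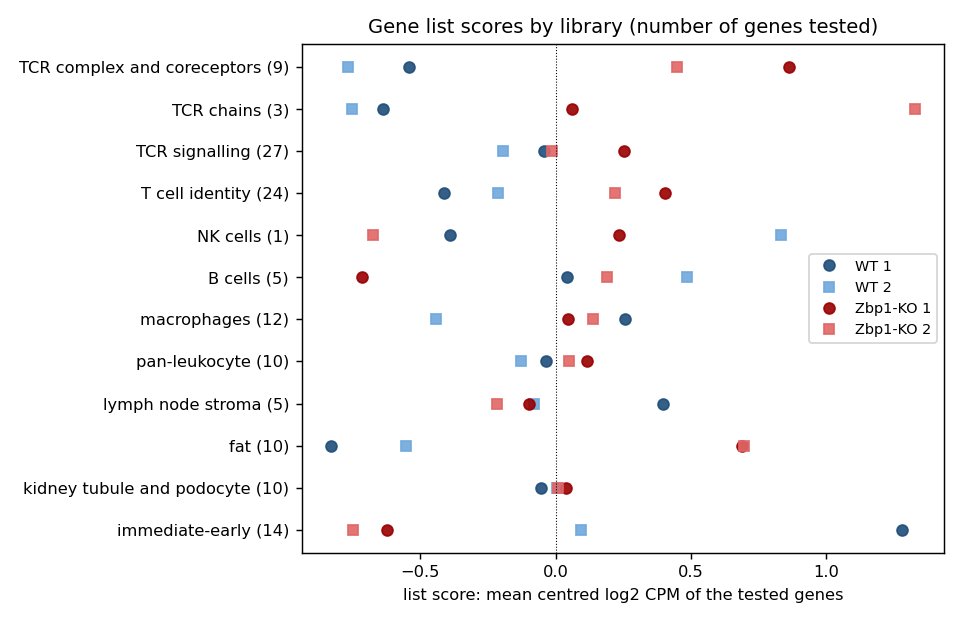
Points give the list score, the mean over a list's tested genes of log2 CPM centred on the gene's mean, for each library, with the number of genes tested in brackets. Both Zbp1-KO libraries lie right of both WT libraries in the T cell receptor complex, TCR chains, TCR signalling and T cell identity lists. The leukocyte and fat lists, and by a small margin the kidney list, show the same order. Both Zbp1-KO libraries lie to the left in the lymph node stroma and immediate-early lists. The T cell receptor complex was chosen by these values, and the other lists with earlier results known, so the order is a description. The TCR chains score rests on 3 of 8 genes, those that passed the filter on low counts.

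The genes whose levels followed the mean profile of the 9 tested genes most closely across the 4 libraries were on none of the T cell lists. Of 14261 candidates, the smallest distance, 0.0548 in centred log2 CPM, was that of Slc11a1, a metal transporter of phagocytes, with 56 and 47 WT counts against 173 and 87 Zbp1-KO counts. Phf21b (0.144), Gm24270 (0.198), Gm7887 (0.203), Bdkrb2 (0.213) and Gprasp2 (0.219) followed. Of the 10 genes themselves, Cd4 lay closest to that profile at 0.319 and Cd8b1 farthest at 1.71. The profile is a mean over genes chosen by these values, and each of the 10 genes alone carries the counting error of few counts. With 14261 candidates and 4 libraries, near matches are to be had without any shared function, so nothing is read from these ranks.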

How the data were processed

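Whole-kidney polyA RNA of 4 mouse libraries (2 WT, 2 Zbp1-KO) was sequenced as read pairs. Per the paper's methods and the submitters' processing notes, the authors trimmed reads with Trimmomatic, aligned them to mm10 with HISAT2 and used featureCounts on uniquely mapped pairs. What they deposited are raw counts per Ensembl gene, without normalization. Tool versions, the annotation release and the strand setting are not given in the sources used here, and no molecular identifiers were described.

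Gene names came from GENCODE M21, which matched 54495 of 54532 identifiers. Genes with a count of about 10 in enough libraries, and 15 in all (edgeR's filterByExpr), were tested with edgeR 4.0.16 in R 4.3.3 (TMM scaling, quasi-likelihood test, Benjamini-Hochberg adjustment, threshold 0.05), with all 4 libraries and genotype as the one factor. RPKM used the union of exons. A prior count of 0.125 was used for fold changes and of 2 for list scores. The median-ratio and upper quartile scalings, other filters, DESeq2 1.42.0, edgeR's exact test, a replicate block and each library left out were alternatives, and the fit was checked on simulated data. Named genes were the 10 genes, Zbp1, the 4 (T cell lists) or 2 (other lists) most abundant tested genes of each list, of which some are named, any called gene and the 6 genes nearest to the mean profile. The members and lists were chosen with earlier results of these data known.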

Additional observations from a re-analysis of the deposited data

How the results depend on the processing

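The 10 genes had a median log2 fold change of 1.17, and leaving out each library moved it between 1.03 and 1.55. Of these genes 4 had both Zbp1-KO libraries above both WT under each scaling and filter, and 6 to 8 with a library left out. Over all tested genes the share so ordered was 16.0% in the main fit and 28.7% to 34.9% with a library left out. Of 110 single-gene values, 10 moved by more than 1 SD, 9 of them by leaving out a library, and 3 changed sign: Cd3d to -0.06 without WT replicate 2, Cd3e to -0.35 without Zbp1-KO replicate 1 and Trbc2 to -0.09 without Zbp1-KO replicate 2. The cause was not tested.

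The number of genes called over all genes was 2, and 41 with all genes of at least 1 count, 4 without mitochondrially encoded genes, 14 with the exact test, 9 with DESeq2 and 0 to 37 with a library left out (0 without WT replicate 1, 20 without WT replicate 2, 8 without Zbp1-KO replicate 1, 37 without Zbp1-KO replicate 2). No TCR signalling or T cell identity gene was called under any alternative. Adding a replicate block gave 11 calls. Over all tested genes, deviations of same-numbered libraries correlated at 0.00399, so no pairing by number was seen. A single value over all genes cannot show whether some genes are paired. With a library left out, list medians ranged from 0.66 to 2.87 (TCR chains), 0.13 to 0.39 (TCR signalling), 0.18 to 0.63 (T cell identity), -1.27 to 0.30 (NK cells), -1.67 to 0.022 (B cells), 0.050 to 0.63 (macrophages), 0.041 to 0.25 (leukocytes), -0.35 to 0.20 (lymph node stroma), 1.14 to 1.51 (fat), 0.0072 to 0.15 (kidney) and -1.63 to -0.57 (immediate-early). The Cd4 share difference ranged from -15.2 to 12.0 percentage points, and that of variable segment CPM from -0.12 to 0.60. With a lone library in a genotype, its spread is assumed to equal that of the other. Leaving out libraries for the count of non-overlapping genes and the Cd4 share, and leaving Lat and Cd8a out of the sum, were chosen after seeing the data. At 1 to 64 counts per gene and library, differences smaller than the Poisson intervals were not detectable. Those intervals do not cover the spread between libraries, so larger differences could also go undetected.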
